A study of Mus musculus with 2 samples.

Results

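Occupancy by Ring1B was examined at the promoters of 44 genes of Wnt signalling in mouse embryonic stem (ES) cells, among 16908 genes with at least 3 array probes. The 44 genes were taken by name from the annotation in the array files: every Wnt, Fzd, Dkk and Sfrp gene with a number, and Lef1, Tcf7, Axin1, Axin2, Lrp5, Lrp6, Wif1 and Frzb. They comprised 19 Wnt ligands, 9 Frizzled receptors, 2 Lrp co-receptors, 10 secreted inhibitors, 2 Axins and 2 Tcf/Lef factors, with 22 genes on each slide.

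Ring1B-bound chromatin was recovered with a monoclonal antibody, amplified by linker-mediated PCR, labelled with Cy5 and hybridised together with Cy3-labelled input DNA to a set of 2 Agilent promoter slides. The labels name ES cells and give no line, strain, mutation or treatment. The slides held different chromosomes and had no probe in common. Every gene was therefore measured on 1 array, with no replicate, no dye swap and no mock immunoprecipitation, so no test was possible, and the precision of each value is limited by this number of arrays.

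The labels differ in naming the cells, since the source names start with Muscle and the titles say ES cells; the titles were taken as the guide here. The arrays measure DNA, so the cell type could not be checked by expression. Of the promoters of ES cell genes, Pou5f1 stood at a log2 ratio of -0.21, Sox2 at 0.32, Zfp42 at 0.50 and Esrrb at -0.09. The 6 skeletal muscle genes Myod1, Myog, Myf5, Des, Acta1 and Ckm lay between -0.95 and 0.13. Of 4 fibroblast genes, Col1a1, Col1a2 and Col3a1 lay between -0.23 and 0.39 and Pdgfra stood at 1.66.

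Wnt proteins are lipid-modified secreted ligands that bind Frizzled receptors with the co-receptors Lrp5 or Lrp6. In the canonical branch this spares beta-catenin from destruction by a complex built on Axin, and beta-catenin then acts with Tcf/Lef factors on target genes; other branches steer cell polarity and movement. Dkk1, Dkk2 and Dkk4 bind the Lrp co-receptors, whereas Sfrp proteins, Frzb and Wif1 bind the ligands outside the cell. Wnt signals support self-renewal of ES cells in culture and pattern the early embryo. Ring1B, encoded by Rnf2, is the ubiquitin ligase of Polycomb repressive complex 1, which marks histone H2A and is found at many silent developmental genes of ES cells.

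The value of a gene is the log2 of immunoprecipitated over input signal, averaged over its probes after the slide's median probe was set to 0. The SD is the spread over probes along the promoter and not a replicate error. A mean of 1, a 2-fold ratio, was the threshold. The ratio is an average over the cells of the sample, so a high ratio in part of the cells and a lower one in all of them cannot be told apart.

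The 44 genes lay above most other promoters. Their median log2 ratio was 0.48, against -0.10 over all 16908 genes, and 37 of the 44 lay above that overall median. A mean of at least 1 was found for 7 genes, or 15.9%, whereas 1.99% of all genes reached it. No member had a mean of -1 or lower, which 1.85% of all genes had. A ratio above 0 was found for 34 members, or 77.3%, against 39.2% of all genes. The 7 genes were Lef1, Fzd8, Wnt11, Wnt10b, Wnt1, Fzd3 and Wnt7b. The nearest to the threshold from above was Wnt7b at 1.05, and from below Frzb at 0.88. Another 15 genes lay between 0.5 and 1, 12 between 0 and 0.5 and 10 between -1 and 0.

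The members were measured with 9 to 46 probes each, with a median of 36 probes over 7744.5 bp. The SD over the probes of a gene ranged from 0.70 to 1.89. Ordered by their means, all 43 pairs of neighbouring members differed by less than their pooled SD over probes, and the largest gap was 0.35, between Lef1 and Fzd8. Gaps between neighbours in so long a sorted list are small by construction, and this SD is not the error of a mean. With 1 array per gene, the order is a description. Of the 1525 probes of the members, 531 (34.8%) had a ratio of at least 1, against 19.7% of all probes. A ratio of -1 or lower was found at 209 (13.7%), against 20.6% of all probes.

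**Figure D1:**
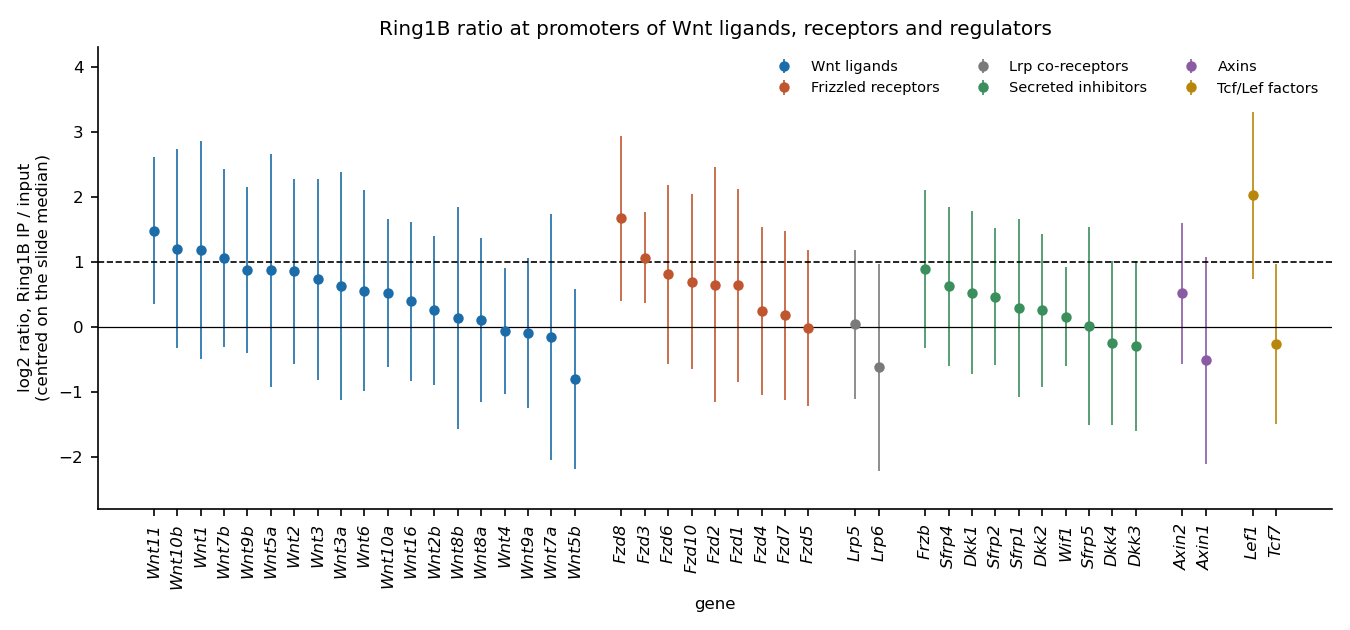
Mean log2 ratio of Ring1B immunoprecipitated over input DNA for each of the 44 genes, grouped by role and ordered within each group; bars are the SD over the probes of the gene on its 1 array, and the dashed line marks the 2-fold threshold. Lef1, Fzd8, Wnt11, Wnt10b, Wnt1, Fzd3 and Wnt7b lie above the line, and the bars of neighbouring genes overlap.

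Because a mean over a long tiled stretch dilutes a narrow signal, runs of neighbouring probes were also taken. A region is a run of at least 3 probes whose running mean, over probes within 500 bp on either side, stayed at or above 1. Regions of at least 2000 bp were found at 9 members, or 20.5%, against 3.04% of all genes. They were Lef1, Fzd8, Wnt11, Wnt10b, Wnt1, Wnt5a, Wnt3a, Wnt3 and Frzb. The same rule with the sign turned found no member, and 0.982% of all genes.

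Among the 19 Wnt ligands the median ratio was 0.55, with 4 genes at or above 1, 15 above 0 and 6 with a long region. The shares over all genes were 1.99%, 39.2% and 3.04%. Wnt11, a ligand of the non-canonical branch with roles in heart and kidney development, had the highest mean, 1.48 ± 1.13 (SD, 46 probes; 2.78-fold). Its tiled stretch ran from 94865565 to 94873343 on chromosome 7, in the coordinates of the array file, whose genome build the sources used here do not give. Single probes ran from -1.36 to 3.89, and 30 of 46 reached 1. The mean was 1.46 upstream of the start site and 1.51 inside the gene. It formed a region of 3714 bp from 4665 to 952 bp upstream, with a mean of 1.71, and a second of 1666 bp from 243 bp upstream to 1422 bp inside, with a mean of 1.90.

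The upstream region of Wnt11 holds another RefSeq start of the gene. The promoter windows of RefSeq (assembly GRCm38.p6, 250 bases before to 50 after a start) were matched to the array by finding probe sequences in them. The downstream Wnt11 start lay within 1 bp of the start in the array file, with 23 CpG pairs in its window. The upstream start lay 3732 bp before it, with 45 CpG pairs. The bases before the upstream start are shown because they lie inside the longest Wnt11 region, followed by the upstream probe with the highest ratio of the gene. CpG pairs are in capitals.
Wnt11 upstream start, GRCm38.p6 chr7:98834862-98835111, plus strand: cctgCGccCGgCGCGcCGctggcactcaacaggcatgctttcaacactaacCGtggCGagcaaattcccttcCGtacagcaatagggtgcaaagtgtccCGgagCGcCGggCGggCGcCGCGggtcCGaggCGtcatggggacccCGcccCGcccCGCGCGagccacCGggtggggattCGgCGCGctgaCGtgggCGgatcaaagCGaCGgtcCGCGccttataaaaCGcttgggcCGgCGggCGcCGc
Wnt11 probe, array chr7:94869044-94869092: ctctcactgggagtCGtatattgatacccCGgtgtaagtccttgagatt
That probe lies 1678 bp upstream of the array's start and had a log2 ratio of 3.89, with a signal of 367 in input and 6376 in immunoprecipitated DNA. Those sources give no strand for the array's probes either.

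Wnt10b and Wnt1 are neighbours on chromosome 15, with starts 11163 bp apart and facing away from each other. Wnt1 is required for the midbrain and Wnt10b acts in bone and fat. Their means were 1.20 ± 1.53 (SD, 32 probes; 98761707 to 98773503) for Wnt10b and 1.18 ± 1.68 (SD, 39 probes; 98765139 to 98777720) for Wnt1. The tiling joins them, and 17 probes between the starts count for both. Those shared probes had a mean of 0.38 ± 1.33, whereas the 15 probes of Wnt10b alone had 2.14 ± 1.17 and the 22 of Wnt1 alone had 1.80 ± 1.69. Of the 17 shared probes 5 reached 1, and the Wnt10b region took in 3 of the shared probes. Wnt10b had a region of 3588 bp, from 1464 bp upstream to 2122 bp inside, with a mean of 2.12. Wnt1 had its own region of 3289 bp, from 730 bp upstream to 2558 bp inside, with a mean of 2.17. The upstream probe with the highest ratio near Wnt10b, 302 bp before its start, is shown because it sits in the region and holds 3 CpG pairs.
Wnt10b probe, array chr15:98764279-98764323: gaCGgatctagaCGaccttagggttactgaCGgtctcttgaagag
Its log2 ratio was 3.29, from signals of 559 in input and 6128 in immunoprecipitated DNA.

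Wnt7b, a ligand of lung and kidney development, was the fourth ligand above the threshold. Its mean was 1.05 ± 1.36 (SD, 28 probes; chromosome 15, 85661481 to 85666312) with single probes from -0.99 to 4.42. Its longest region, 1939 bp from 524 to 2462 bp inside the gene, was just under the length limit. Within 1000 bp of the start its mean was 0.73, so the signal of Wnt7b sat away from the start.

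Wnt5a, Wnt3a and Wnt3 missed the mean of 1 but had long regions. Wnt5a drives the outgrowth of limbs and body axis, Wnt3 is needed to form the primitive streak, and Wnt3a is needed for trunk and tail. Wnt5a had a mean of 0.86 ± 1.80 (SD, 45 probes; chromosome 14, 25929926 to 25937992), made of 0.31 upstream and 1.77 inside. Its region of 3508 bp ran from 1150 bp upstream to 2357 bp inside, with a mean of 2.08. Further upstream, from 5281 to 4636 bp before the start, 4 probes had a mean of -1.86. Wnt3 had a mean of 0.73 ± 1.55 (SD, 44 probes; chromosome 11, 103877701 to 103885629) and a region of 2734 bp from 1880 bp upstream to 853 bp inside, with a mean of 2.04. Wnt3a had 0.62 ± 1.75 (SD, 39 probes; chromosome 11, 59369775 to 59377695). Its region of 3165 bp ran from 1408 bp upstream to 1756 bp inside, with a mean of 1.77, and 6 probes from 4103 to 3139 bp upstream had a mean of -1.82. At Wnt5a and Wnt3a the ratio thus passed from low to high within a single tiled promoter. The highest and lowest upstream probes of Wnt3a and the highest of Wnt3 are shown as the ends of that range.
Wnt3a highest, array chr11:59373401-59373453: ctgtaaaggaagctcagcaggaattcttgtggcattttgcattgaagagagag
Wnt3a lowest, array chr11:59375925-59375984: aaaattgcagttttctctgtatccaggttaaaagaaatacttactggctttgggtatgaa
Wnt3 highest, array chr11:103882751-103882796: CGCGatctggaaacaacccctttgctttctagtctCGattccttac
The first had a log2 ratio of 3.46 (signals of 188 in input and 2309 in immunoprecipitated DNA), 1191 bp upstream. The second had -4.34 (3565 and 196), 3718 bp upstream. The Wnt3 probe, 532 bp upstream, had 3.86 (736 and 11963) and holds 3 CpG pairs, whereas neither Wnt3a probe holds one.

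**Figure D2:**
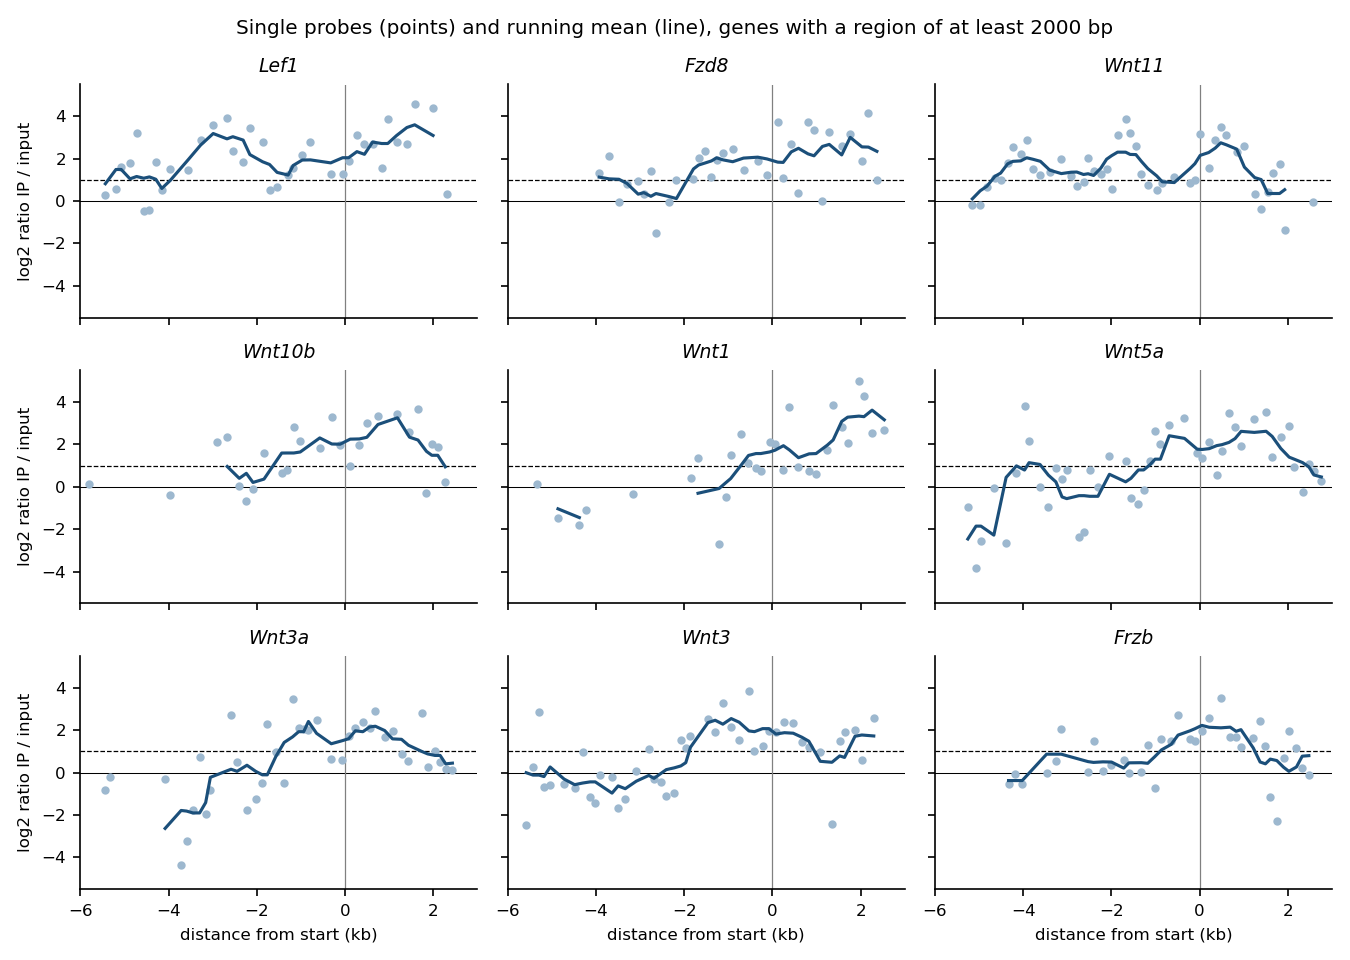
Log2 ratio of single probes (points) and their running mean (line) against the distance from the start site in kb, with the inside of the gene to the right, for the 9 genes with a region of at least 2000 bp; the dashed line is at 1, and probes beyond 6 kb upstream are not drawn. The running mean stays at or above 1 across the start in each gene, and dips below 1 between the 2 regions of Wnt11.

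The other ligands had lower means. Wnt9b (0.87), Wnt2 (0.85), Wnt6 (0.55) and Wnt10a (0.52) lay between 0.5 and 1. Wnt16 (0.39), Wnt2b (0.25), Wnt8b (0.13) and Wnt8a (0.10) lay between 0 and 0.5, and Wnt4 (-0.06), Wnt9a (-0.10) and Wnt7a (-0.16) just under 0. Wnt2 had a region of 1332 bp with a mean of 2.18, ending 74 bp inside the gene, and Wnt10a one of 1935 bp that began 1058 bp inside. Wnt7a, which sets dorsal identity in the limb, combined 9 probes with a mean of 1.93 from 97 to 1407 bp inside the gene with 4 probes at -2.26 from 1522 to 896 bp upstream. Its mean near 0, with an SD of 1.89, hides these 2 stretches.

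Wnt5b, the close relative of Wnt5a, had the lowest mean of all members. It stood at -0.81 ± 1.38 (SD, 26 probes; chromosome 6, 119490100 to 119502036), and 1 of its 26 probes reached 1 while 11 were at -1 or lower. Only 4.39% of all genes lay lower. Around the start, from 712 bp upstream to 546 bp inside, 7 probes had a mean of -1.39. RefSeq gives Wnt5b 3 starts. The array's start coincides with the second, whose window has 4 CpG pairs. The windows of the first, with 47 CpG pairs, and of the third, with 7, held none of the Wnt5b probes, so those promoters are not covered by the value. The bases before the second start and the lowest upstream probe are shown for comparison with Wnt11.
Wnt5b second start, GRCm38.p6 chr6:119467212-119467461, minus strand: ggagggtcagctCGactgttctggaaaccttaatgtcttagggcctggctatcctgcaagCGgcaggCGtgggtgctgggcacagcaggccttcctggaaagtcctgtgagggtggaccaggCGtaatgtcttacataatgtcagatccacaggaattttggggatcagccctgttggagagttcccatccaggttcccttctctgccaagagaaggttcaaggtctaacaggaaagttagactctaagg
Wnt5b lowest probe, array chr6:119492613-119492668: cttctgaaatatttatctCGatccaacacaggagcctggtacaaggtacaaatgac
The probe, 287 bp upstream, had a log2 ratio of -3.65, with signals of 2696 in input and 251 in immunoprecipitated DNA. Of the 26 probes 6, at a mean of -0.91, are annotated to Wnt5b together with Fbxl14, a gene for an F-box protein. The mean of Fbxl14 was 0.06 over 29 probes, which include these 6.

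Several ligand genes lie in pairs. Wnt3 and Wnt9b, 24378 bp apart, stood at 0.73 and 0.87, and Wnt6 and Wnt10a, 19558 bp apart, at 0.55 and 0.52. Wnt3a and Wnt9a, 16319 bp apart, stood at 0.62 and -0.10. Only Wnt3a of this last pair had a region above 1, and Wnt9a had none of any length. The difference between the 2 means was smaller than either SD over probes. That SD is a spread along the promoter and does not measure whether the 2 genes differ.

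Among the 9 Frizzled receptors the median was 0.65, with 2 genes at or above 1 and 8 above 0. The shares over all genes were 1.99% and 39.2%. Fzd8 had a mean of 1.67 ± 1.27 (SD, 33 probes; 3.18-fold; chromosome 18, 9412723 to 9419071). Of its probes 24 reached 1, with a range from -1.50 to 4.14. The mean was 1.21 upstream and 2.35 inside, and a region of 4205 bp from 1812 bp upstream to 2392 bp inside had a mean of 2.12. Its median signals were 441 in input and 1472 in immunoprecipitated DNA. Fzd3, a receptor in axon guidance and planar polarity, had 1.06 ± 0.70 (SD, chromosome 14, 60121348 to 60123185). That value rests on 9 probes, all of which are also annotated to the divergent gene Fbxo16. Over its 34 probes Fbxo16 had a mean of -0.30, so the signal of the shared stretch did not extend over the rest of the Fbxo16 tiling.

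Fzd6 (0.80), Fzd10 (0.69), Fzd2 (0.65) and Fzd1 (0.63) followed, then Fzd4 (0.23), Fzd7 (0.17) and Fzd5 (-0.02), the lowest of the class with an SD of 1.20 over 33 probes (chromosome 1, 64977105 to 64984924). Fzd2 showed the widest split within the class, with -0.01 upstream and 2.00 inside the gene, and a region of 1254 bp began 686 bp inside. Fzd1 likewise had its region, 1550 bp with a mean of 2.16, from 678 bp inside the gene onwards. Both co-receptors were near or below 0. Lrp5 had 0.04 ± 1.15 (SD, 30 probes; chromosome 19, 3579357 to 3586857) and Lrp6 had -0.63 ± 1.59 (SD, 29 probes; chromosome 6, 134578252 to 134585039), with 4 probes reaching 1 and 11 at -1 or lower.

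Of the 10 secreted inhibitors none reached a mean of 1, against 1.99% of all genes, and none of 10 is close to that share. Above 0 lay 8 of them, against 39.2% of all genes, and the median was 0.27. Frzb was the highest, with 0.88 ± 1.21 (SD, 36 probes; chromosome 2, 80288608 to 80295472). Its region of 2136 bp from 894 bp upstream to 1242 bp inside had a mean of 1.93. In the Sfrp family Sfrp4 led with 0.62 ± 1.22 (SD, 33 probes; chromosome 13, 18987171 to 18993046), and Sfrp5 was lowest with 0.01 ± 1.53 (SD, 36 probes; chromosome 19, 42093466 to 42101264). Sfrp4 shares 20 probes, with a mean of 0.54, with the divergent gene Epdr2, which stood at 0.56. Sfrp2 had 0.46 and Sfrp1 had 0.29. In the Dkk family Dkk1 had 0.52 ± 1.26 (SD, 42 probes; chromosome 19, 30246289 to 30254031), Dkk2 had 0.25, Dkk4 had -0.25 and Dkk3 had -0.30 ± 1.31 (SD, 39 probes; chromosome 7, 108071552 to 108080062). Wif1 had 0.15 ± 0.77 (SD, 38 probes; chromosome 10, 120424826 to 120432939). Both channels of Wif1 were at the software's floor value at 34.2% of its probes, and its median signals were 93.0 in input and 104 in immunoprecipitated DNA, so its ratio is weakly determined.

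The 2 Axins, scaffolds of the destruction complex, had means of opposite sign, except within 1000 bp of the start, where Axin1 had 0.10 and Axin2 had 0.30. Axin2, which is also a transcriptional target of the pathway, had 0.51 ± 1.09 (SD, 32 probes; chromosome 11, 109024401 to 109031866). Axin1 had -0.52 ± 1.60 (SD, 35 probes; chromosome 17, 24316480 to 24324139), with 4 probes reaching 1 and 13 at -1 or lower. The difference was smaller than either SD over probes, which is a spread along the promoter and does not measure whether the 2 genes differ.

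The 2 Tcf/Lef factors stood near opposite ends of the members. Lef1 had the highest mean, 2.02 ± 1.29 (SD, 37 probes; 4.05-fold), at rank 13 of all 16908 genes, from 130941496 to 130949300 on chromosome 3. Of its 37 probes 29 reached 1 and none was at -1 or lower, with a range from -0.47 to 4.57. Its mean was 1.70 upstream and 2.78 inside the gene. The region of Lef1 was the longest of the members, 5601 bp from 3585 bp upstream to 2015 bp inside, with a mean of 2.46, and another of 954 bp lay further upstream. Median signals over its probes were 1138 in input and 5862 in immunoprecipitated DNA. RefSeq gives Lef1 4 starts. The window of the last, with 5 CpG pairs, held none of the Lef1 probes, so that promoter is not covered by the value. The others lay 173 and 147 bp before and 2321 bp after the array's start. The upstream probe with the highest ratio lay well away from these starts, 2678 bp upstream, and is shown for that reason.
Lef1 probe, array chr3:130944260-130944307: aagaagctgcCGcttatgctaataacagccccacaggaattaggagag
It had a log2 ratio of 3.92, with signals of 659 in input and 11722 in immunoprecipitated DNA. Tcf7, which encodes TCF1, had -0.27 ± 1.23 (SD, 33 probes; chromosome 11, 52237272 to 52244081). Its upstream probes averaged 0.01 and those inside the gene -0.82, with a low stretch of 1109 bp at -1.46 from 890 bp inside.

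**Figure D3:**
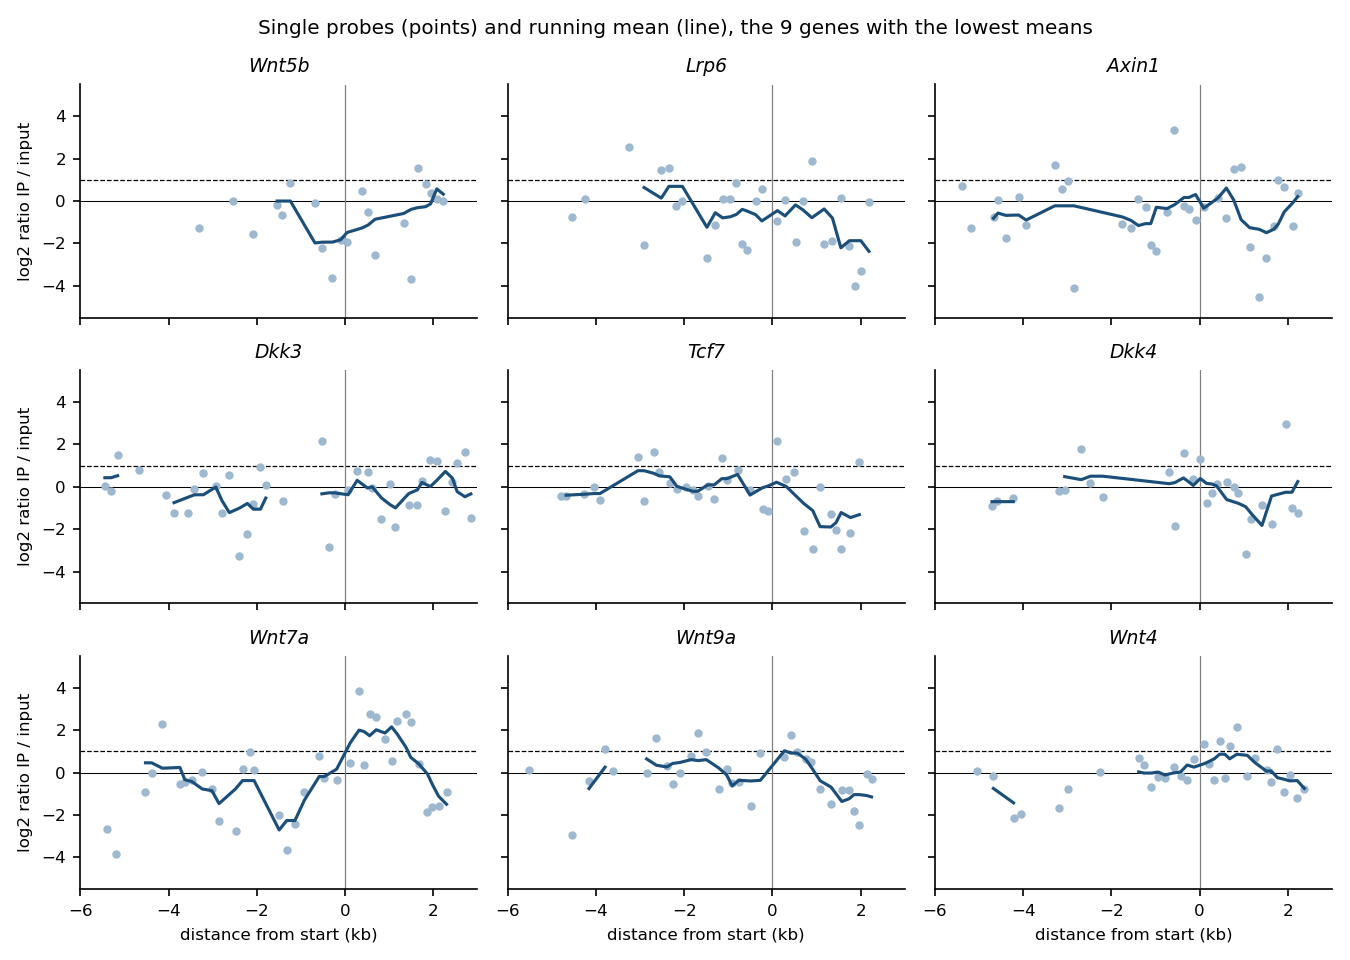
Log2 ratio of single probes (points) and their running mean (line) against the distance from the start site in kb for the 9 members with the lowest means, drawn as for the genes with long regions. Wnt5b is low across the start, Wnt7a passes from low upstream to high inside the gene, and Tcf7 and Lrp6 are low inside the gene.

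The signal was higher inside the genes than upstream. Of the 43 members with at least 3 probes on each side of the start, 36 (83.7%) had a higher mean inside, against 53.7% of all genes. The median difference was 0.60 for the members and 0.06 for all genes. A difference above 1 was found for 10 members, or 23.3%, against 9.64% of all genes. In 500 bp steps, the 37 members with a mean below 1 averaged -0.50 from 5500 to 5000 bp upstream, where 25 of them had probes, and 0.92 over the first 500 bp of the gene. The members above the threshold had 0.25 (3 genes) and 2.28 (6 genes) in those steps. Among the 37 members, both channels were at the floor value for 8.33% of probes in the far step and 1.04% in the first step of the gene.

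Close to the start more members passed the threshold. Over probes within 1000 bp of the start, 18 of 43 members had a mean of at least 1, against 8.09% of all genes. The highest were Wnt10b (2.35), Lef1 (2.33), Fzd8 (2.20), Wnt5a (2.16), Frzb (1.96), Wnt3 (1.92), Wnt11 (1.89) and Wnt3a (1.88), each from 7 to 11 probes. Those that reached 1 also took in Wnt6, Fzd6, Wnt1, Wnt2, Wnt2b, Fzd10, Wnt9b, Wnt7a, Sfrp5 and Dkk2, between 1.07 and 1.55. Wnt5b, at -1.54, was the single member at -1 or lower, against 6.57% of all genes. Of any length, regions above 1 were found at 32 members, against 29.4% of all genes, and regions below -1 at 13, against 47.0% of all genes. Both kinds were found at 6 members, and neither at Dkk3, Dkk4, Lrp5, Wif1 and Wnt4.

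CpG-rich promoters were frequent among the members, but the CpG count of a RefSeq window did not order the ratios of those matched. A RefSeq promoter window that holds a probe of the gene was found for 28 members, and where several did, the one with most probes (the first listed on ties) was used. Their median was 24 CpG pairs, against 16 over 8418 genes matched in the same way. Of the 18 members with 20 or more CpG pairs 2 had a mean of at least 1, of 7 with 10 to 19 there were also 2, and of 3 with fewer there were none. The class of Lef1 depends on the start chosen: with the matched start nearest the array's start, an alternative chosen after seeing the data, its window has 21 CpG pairs and not 18, and the counts become 3 of 19 and 1 of 6. Over all matched genes the counts were 88 of 3467, 58 of 2046 and 17 of 2905. Pearson's r between CpG pairs in the window and ratio was -0.05 over the 28 members and 0.15 over the 8418 genes. With CpG pairs per array probe, averaged over the gene's probes, it was 0.31 over all 44 members and 0.24 over 16908 genes. These are descriptions across genes, which share 2 hybridisations and are not independent replicates. Wnt9a had the most CpG pairs, 58, and Wnt4 had 51, with ratios of -0.10 and -0.06. The bases before the Wnt9a start are shown beside those of Wnt11 and Wnt5b as an example of a CpG-dense window with a ratio near 0.
Wnt9a start, GRCm38.p6 chr11:59306680-59306929, plus strand: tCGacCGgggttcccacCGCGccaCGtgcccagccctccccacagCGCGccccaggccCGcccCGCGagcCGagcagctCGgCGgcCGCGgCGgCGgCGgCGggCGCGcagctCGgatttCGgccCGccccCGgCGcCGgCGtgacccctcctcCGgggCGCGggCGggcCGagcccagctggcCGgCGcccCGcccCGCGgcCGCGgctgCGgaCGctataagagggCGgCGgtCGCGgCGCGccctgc
This stretch holds 48 CpG pairs, that of the upstream Wnt11 start above holds 37 and that of Wnt5b holds 4. The counts and r above used the downstream Wnt11 start instead. Its window has 23 CpG pairs, and the 250 bases before it hold 16.

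**Figure D4:**
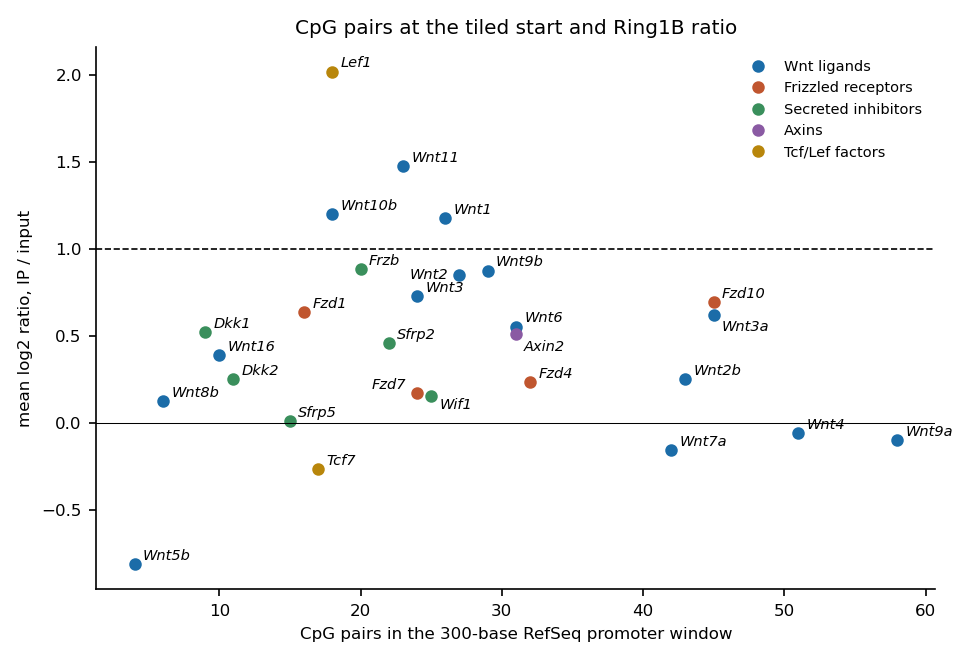
Mean log2 ratio against the number of CpG pairs in the 300-base RefSeq promoter window for the 28 members whose window holds one of their probes; the dashed line is at 1. Lef1, Wnt11, Wnt10b and Wnt1 have 18 to 26 CpG pairs, Wnt9a with 58 lies near 0, and Wnt5b with 4 lies lowest.

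The rest of the pathway stood closer to the array as a whole. Of 71 further genes listed by role, 60 were measured. Their median was 0.08, against -0.10 over all genes, and 33 of the 60 lay above 0, against 39.2% of all genes. None was at or above 1, none at or below -1 and none had a region of at least 2000 bp. Of all genes 1.99%, 1.85% and 3.04% did. The highest was Celsr2, a planar polarity cadherin, with 0.96 ± 1.52 (SD, 27 probes), and the lowest Tle5, a short Groucho-family protein, with -0.89 ± 0.84 (SD, 32 probes). Of the 9 measured genes of the destruction complex and beta-catenin, Gsk3b (0.23) alone lay above 0, and Ctnnb1, which encodes beta-catenin, stood at -0.30. All 5 measured target genes lay above 0, from 0.08 for Myc to 0.52 for Ccnd1. The 6 co-receptors had a median of 0.23 and the 4 R-spondins, which amplify Wnt signals, one of 0.28. The other Tcf genes, Tcf7l1 (-0.07) and Tcf7l2 (0.14), were near 0. Within 1000 bp of the start, 8 of 57 reached 1, or 14.0%, against 8.09% of all genes: Celsr2 (1.95), Ccnd1 (1.59), Wls (1.58), Cdx4 (1.21), Kremen2 (1.09), Cxxc4 (1.05), Tnfrsf19 (1.03) and Lgr5 (1.02). Wls carries Wnt proteins to the cell surface and Lgr5 is an R-spondin receptor.

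Other families of signalling genes were given the same summary for reference, without a test. The median was 0.24 over 25 FGF ligands and receptors, 0.07 over 22 BMP and Gdf ligands and 0.15 over 8 Notch receptors and ligands. A mean of at least 1 was found for 2 (8%), 1 (4.55%) and 2 (25%) of them, against 15.9% of the members and 1.99% of all genes. A long region was found for 6 (24%), 1 (4.55%) and 2 (25%), against 20.5% of the members and 3.04% of all genes.

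Input signal is the denominator of the ratio, so a negative relation between them is partly built in. The same holds for the signals of probes picked by their ratio. Over all 474222 probes, Pearson's r between the log2 ratio and log2 input signal was -0.48, and over the 1525 member probes it was -0.27. Member probes at or above 1 had median signals of 436 in input and 2009 in immunoprecipitated DNA, and those at or below -1 had 1802 and 481. For all probes the corresponding values were 147 and 624, and 1559 and 395. Over the gene means the relation to log2 input ran the other way among the members (r = 0.19 over 44 genes) than among all genes (-0.24 over 16908). The part of input signal in the ratios was not tested. Floor values filled both channels at 7.54% of member probes, against 18.2% and 15.5% of all probes of slides 1 and 2, and no member probe was saturated in immunoprecipitated DNA.

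**Figure D5:**
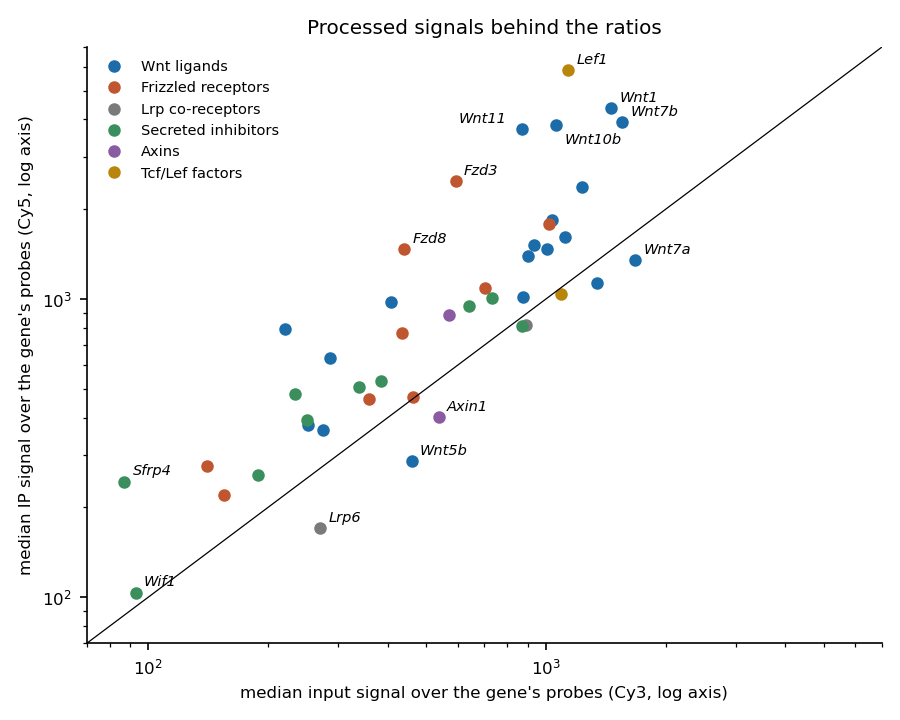
Median processed signal of immunoprecipitated (Cy5) against input DNA (Cy3) over the probes of each member, both on log axes, coloured by role; the line marks equal signals. Lef1, Wnt11, Wnt10b, Wnt1 and Wnt7b lie above the line at bright input, Fzd8 and Fzd3 also above it at dimmer input, and Wnt5b, Lrp6 and Axin1 below it.

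Across the alternatives that measured them, 5 of the 7 genes stayed at or above 1: Lef1, Fzd8, Wnt11, Wnt10b and Fzd3. Fzd3 was measured under 8 alternatives, the others under all 11. It had no value within 1000 bp of the start, with at least 20 probes or without probes of divergent pairs. Wnt1 had 0.95 as a median of its probes and Wnt7b had 0.73 within 1000 bp of its start. The sign of 5 members, Fzd5, Tcf7, Wnt4, Wnt7a and Wnt9a, turned positive under some other scaling, reaching 0.11 to 0.32. Within 1000 bp of the start Wnt7a (1.09), Fzd5 (0.49), Wnt4 (0.46), Wnt9a (0.34), Axin1 (0.10) and Dkk4 (0.10) were positive. There Tcf7 stayed negative (-0.36), and Wnt8b turned negative (-0.03). Without probes dim in either channel Wnt8b (-0.27) and Sfrp5 (-0.02) were negative, as were Sfrp5 (-0.02) and Wif1 (-0.01) as medians of their probes.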

How the data were processed

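DNA from 1 Ring1B immunoprecipitation (Cy5) and input DNA (Cy3) of ES cells was measured on 2 promoter slides. The deposited array files hold processed intensity values that, per the file headers, Agilent Feature Extraction 9.1.3.1 background-subtracted with spatial detrending and scaled by 1 linear factor per dye, setting very dim spots to a floor value. The log ratio column is log10 of red over green, per the file headers. The deposited series table holds log2 ratios of mean signals that were neither background-subtracted nor centred, which was checked on the array's own signals; its medians were 0.791 and 0.818 on slides 1 and 2. Linker-mediated PCR before labelling, per the labels, can change the ratios.

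The log2 ratio of processed signals was centred on the slide median (0.23 and 0.16) over 237054 and 237168 probes, without controls and 141 and 17 outlier spots. The SD over probes was 1.33 and 1.44. Input stood well above background at 74.1% and 76.3% of probes, and immunoprecipitated DNA at 77.2% and 80.6%. Genes were those of the array's annotation, with at least 3 probes. Start sites came from the file of slide 1 and, on slide 2, from the boundary between promoter and inside annotation; they lay a median of 5 and 61 bp from matched RefSeq starts of 16 and 12 members. Regions had gaps under 1000 bp. The analysis used Python 3.11.15 and limma 3.58.1 (for normexp background correction only) and was tested on simulated data. The members, the pathway list and the settings were chosen with earlier results of these data known. All members were named, in full those with a mean of at least 1, a long region, or the highest or lowest value of their class; of the other pathway genes the extremes were named, with further examples chosen after their values were seen. Of the listed pathway genes, Lgr4, Znrf3, Prickle1, Prickle2, Dact3, Apc, Bcl9, Pygo1, Pygo2, Sp5 and Apcdd1 were not analysed here. Alternatives changed the background correction, centring, GC correction, dim and floor probes, summary, window, minimum of probes, divergent probes, threshold and region settings.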

Additional observations from a re-analysis of the deposited data

How the results depend on the processing

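No paired analysis was possible because each slide was 1 array with its own probes and there was no replicate. The median over members stayed above that of all genes under all 11 gene value alternatives, between 0.29 (median of the probes, where all genes had -0.01) and 0.87 (within 1000 bp of the start, where all genes had 0.03). Without centring, the median of all genes shifted by 0.20 and that of the members was 0.68; normexp shifted it by 0.11 and the series table by 0.11. Values under the alternatives were compared with the SD over probes for 19 of the 44 members. These took in all with a mean of at least 1 or a long region. All 206 values moved by less than that SD. It is a spread along the promoter and not an error, so large shifts also pass. Within 1000 bp of the start Wnt3a moved from 0.62 to 1.88 and Wnt5a from 0.86 to 2.16. The count of members at or above 1, 7 in the report, was 12 with normexp (2.64% of all genes), 11 without centring (2.99%), 11 with the series table (2.56%), 18 within 1000 bp of the start (8.09%), 18 at a 1.5-fold threshold (5.72%) and 2 at a log2 threshold of 1.5 (0.651%). It was 6 to 9 under the other alternatives. For the other pathway genes the count of 0 became 1 with normexp, 1 without centring, 1 with the series table, 1 with GC-corrected ratios, 1 with the median of the probes, 8 within 1000 bp of the start and 4 at 1.5-fold. The 9 members with a long region became 15 with a running mean over 1000 bp on either side (4.04% of all genes), 20 with a minimum length of 1000 bp (8.26%) and 2 with one of 4000 bp (0.798%), and 6 to 12 otherwise. A minimum length of 1000 bp also found 2 members with the sign turned, Tcf7 and Wnt5b, against 10.2% of all genes. Without probes dim in either channel Lrp6 reached -1.04. The cause of these shifts was not tested, beyond what a changed threshold, window or length does by its construction. With 1 array per gene the spread between samples is unknown, and dim probes limit genes such as Wif1 and Fzd4, where the floor value filled both channels at 34.2% and 30.4% of probes.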

Other observations

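Low stretches stood beside high ones at 6 members: Fzd4, Sfrp1, Wnt10a, Wnt3a, Wnt5a and Wnt7a. In each of them the low stretch lay upstream of the start. Fzd4 had 6 probes at -1.60 from 4480 to 3620 bp upstream and 7 probes at 1.44 from 1758 to 832 bp upstream, and Sfrp1 had 3 probes at -2.51 from 3022 to 2647 bp upstream. At Tcf7, Lrp6 and Wnt9a a low stretch lay inside the gene, with means of -1.46, -1.87 and -1.04. Axin1 had 1 inside, at -1.93, and 1 of 3 probes at -0.74 from 1412 to 1084 bp upstream.

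Single probes reached further than any mean. The highest were in Wnt1 (4.98), Lef1 (4.57) and Wnt7b (4.42), and the lowest in Axin1 (-4.55), Wnt3a (-4.34) and Fzd1 (-4.28). Axin1 also had a probe at 3.36, 573 bp upstream of its start.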
